A study of Rattus norvegicus with 9 samples.

Results

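Ras proteins are small GTPases that relay signals when they carry GTP. Guanine nucleotide exchange factors load them with GTP, and GTPase activating proteins speed its hydrolysis and so switch them off. In lymphocytes and myeloid cells this cycle links antigen, cytokine and growth factor receptors to the ERK kinases. The exchange factors described here were Rasgef1b, Rasgrp1, Rasgrp2, Sos1 and Sos2, and the GTPase activating proteins were Rasal3, Rasa1 and Rasa2. These 8 genes, of 22077 intact genes in the deposited table, were taken by their symbol, and they had been chosen from their exon and intron reads in the same libraries. Their levels and fold changes are therefore a description, and no test is given for them.

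The RNA came from peripheral blood mononuclear cells (PBMC, the lymphocytes and monocytes of blood) of wild-type Sprague-Dawley rats. There were 3 libraries from normoxia at day 0, 3 from Sugen-Hypoxia (SuHx) at day 28 and 3 from Sugen-Hypoxia at day 56. Sugen-Hypoxia combines a VEGF receptor inhibitor with low oxygen and is used as a rat model of pulmonary arterial hypertension. The title of the series concerns the aryl hydrocarbon receptor in that disease. All controls were day 0 rats, so treatment, day and age cannot be told apart. Nothing in the labels says that replicates were separate animals, and p-values then reflect only how far these samples vary, possibly for technical reasons.

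The libraries held 22148400 to 39947430 exon reads. Transcripts of the globin loci took 43.0% to 56.3% of exon reads in normoxia, 1.42% to 29.0% at day 28 and 40.5% to 44.4% at day 56. Intron reads made up 5.37% to 14.6% of reads within genes in normoxia, 14.2% to 24.9% at day 28 and 11.9% to 16.9% at day 56. Ptprc, Cd52 and Coro1a, which mark leukocytes, summed to 3056 to 3665 CPM (counts scaled to a common library size) in normoxia, 2955 to 3171 at day 28 and 2578 to 2709 at day 56. Cd52, a small part of that sum, was at 52.2 to 105 CPM in normoxia, 0.56 to 18.9 at day 28 and 52.3 to 81.7 at day 56. Summed T cell markers were at 1248 to 1593 CPM in normoxia, 827 to 1466 at day 28 and 1281 to 1671 at day 56, B cell markers at 993 to 1697, 546 to 1052 and 503 to 828 in the same order, and monocyte markers at 2228 to 4580, 3425 to 11004 and 1870 to 2842. Likewise, NK and cytotoxic markers summed to 382 to 670, 243 to 552 and 636 to 808 CPM, neutrophil markers to 46.6 to 98.6, 102 to 281 and 69.4 to 109, and dendritic cell markers to 5.85 to 16.8, 10.8 to 16.5 and 10.7 to 16.1. Platelet markers ranged over 680 to 3260, 528 to 844 and 1892 to 3823 CPM, and erythroid markers over 3423 to 8880, 75.5 to 2048 and 3849 to 4455. Of 68 markers listed, 65 were in the table. Cd163 had 0 reads in at least 1 library and Gp5 had 0 in all 9. The number codes in the table's column names run on from replicate 1 of normoxia to replicate 1 of day 56 and over replicates 2 and 3 of both groups, whereas the day 28 codes form a run of their own. What the codes mark is not said, and whatever sets day 28 apart by code and by day cannot be told apart. The part of cell makeup in the results below was not tested. In such bulk samples, fewer cells of a type and less RNA per cell cannot be told apart.

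The promoter windows of Rasgef1b are shown because it was the member with the largest fold change. RefSeq promoter sequences (build GRCr8, another build than the rn6 of the deposited table) matched 7 of the 8 genes, and Rasgef1b has 2 annotated starts that lie 5399 bases apart. The 250 bases upstream of each start are printed, both on the plus strand, with motif matches in capitals. The upstream window is chr14:10644214-10644463 and the downstream window chr14:10649613-10649862.
Rasgef1b, upstream start: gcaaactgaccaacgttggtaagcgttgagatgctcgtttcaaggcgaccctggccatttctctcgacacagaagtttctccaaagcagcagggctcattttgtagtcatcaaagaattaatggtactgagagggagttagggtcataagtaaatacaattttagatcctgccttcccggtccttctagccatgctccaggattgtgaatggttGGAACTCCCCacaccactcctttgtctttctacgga
Rasgef1b, downstream start: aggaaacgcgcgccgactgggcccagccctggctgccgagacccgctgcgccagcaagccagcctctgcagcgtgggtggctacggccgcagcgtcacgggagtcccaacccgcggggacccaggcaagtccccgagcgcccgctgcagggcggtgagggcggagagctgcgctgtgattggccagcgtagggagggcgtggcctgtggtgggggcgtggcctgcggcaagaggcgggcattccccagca
The windows differ in composition, with 46.8% G and C and 7 CG dinucleotides in the upstream window and 73.6% and 25 in the downstream one. The median of all 33469 windows was 51.2% G and C. Searched on both strands were the CRE motif TGACGTCA, the AP-1 motif TGANTCA, the EGR motif GCGTGGGCG, the E-box CACGTG, the NF-kB consensus and the CArG box of the serum response element. No match lay over another in these windows. The capitals mark 1 match to the NF-kB consensus on the minus strand, whose letters start 36 bases before the upstream start. Of all windows, 6.33% hold that motif. The downstream window had no match to these letters. Among the other members, Rasgrp2 and Rasal3 each had 1 E-box, at 30 and 40 bases before the start, and 5.59% of all windows hold one. The AP-1 motif was in 6.34% of all windows, the CRE motif in 1.59%, the CArG box in 1.5% and the EGR motif in 0.478%, and no member's window held one of them.

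Rasgef1b encodes an exchange factor of the CDC25 family whose human form acts on Rap2, and in mouse macrophages the gene is known to be induced by Toll-like receptor ligands. Rasgef1b (ENSRNOG00000002345, rn6 chromosome 14, 11988670 to 12027381, 14 exons) had 183, 296 and 142 exon reads in normoxia, 437, 432 and 442 at day 28 and 2491, 1836 and 2314 at day 56. Scaled to library size by TMM, this was 7.62, 10.9 and 9.21 CPM in normoxia, 11.6, 11.0 and 14.1 CPM at day 28 and 92.9, 77.2 and 77.5 CPM at day 56. Every day 56 library was far above every other library, and the day 28 libraries lay just above the normoxia libraries, without overlap. The exon log2 fold change over normoxia was 0.40 ± 0.18 (SE, n = 3 each) at day 28 and 3.16 ± 0.19 at day 56, and day 56 over day 28 gave 2.75 ± 0.19. In folds, day 56 was 8.92 times normoxia and 6.74 times day 28. Leaving out each library in turn kept these exon log2 fold changes within 0.29 to 0.54, 3.05 to 3.30 and 2.66 to 2.87. Among libraries with adjacent codes, the log2 ratio of exon CPM at day 56 over normoxia was 3.61 in replicate 1 and 2.94 in replicates 2 and 3, and that of intron CPM was 4.13 and 3.73. With each library's intron share as a covariate the exon value at day 28 was 0.69. Of the 12447 genes with enough exon reads for the fit, 47 had a larger log2 fold change at day 56 over normoxia, 50 at day 56 over day 28 and 2921 at day 28 over normoxia.

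Reads across exon junctions of Rasgef1b numbered 149, 254 and 127 in normoxia, 363, 377 and 373 at day 28 and 2095, 1518 and 1928 at day 56. These junction reads were 81.4% to 89.4% of its exon reads over the 9 libraries. All its exon and intron reads were counted as uniquely mapped, and no other gene line of the table overlapped it or any other member.

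**Figure D1:**
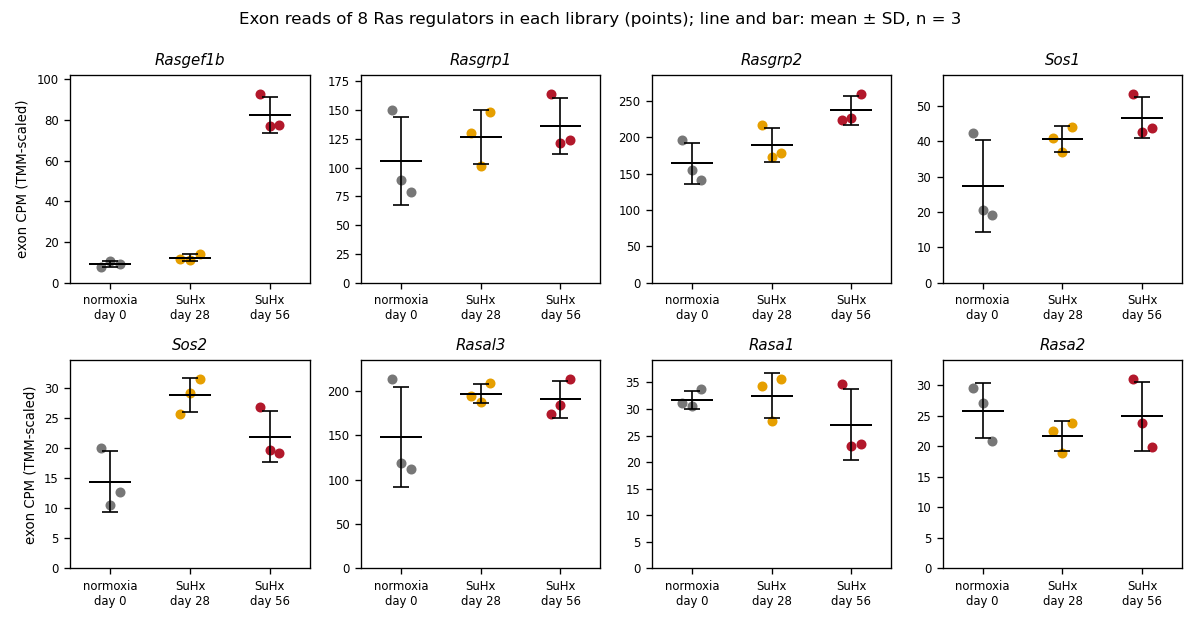
Exon reads of the 8 genes as TMM-scaled CPM (vertical axes, each from 0) in the normoxia, SuHx day 28 and SuHx day 56 libraries; points are libraries, and the line and bar are the mean ± SD (n = 3). Rasgef1b at day 56 lies at 77.2 to 92.9 CPM, apart from all its other values, whereas most other panels overlap between groups.

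Intron reads, those within the gene but outside its exons, come largely from unspliced transcripts, and they were counted and scaled apart from exon reads. Rasgef1b had 152, 120 and 53 intron reads in normoxia, 1162, 1216 and 404 at day 28 and 3545, 2483 and 2519 at day 56. This was 36.7, 47.8 and 38.1 intron CPM in normoxia, 149, 167 and 88.8 at day 28 and 641, 600 and 538 at day 56. The 3 groups followed each other with no overlap, so day 28 already stood clear of normoxia in intron reads. The intron log2 fold change over normoxia was 1.73 ± 0.25 (SE, n = 3 each) at day 28 and 3.86 ± 0.26 at day 56, and day 56 over day 28 gave 2.13 ± 0.24. Leaving out each library in turn gave 1.55 to 1.96, 3.81 to 4.0 and 1.90 to 2.31. Of 11713 genes with enough intron reads, 131, 22 and 64 had a larger intron log2 fold change than Rasgef1b in these comparisons.

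The intron difference exceeded the exon difference at day 28. The intron log2 fold change of Rasgef1b was 1.32 above the exon one at day 28 over normoxia and 0.70 above it at day 56 over normoxia, and 0.62 below it at day 56 over day 28 (intron minus exon -0.62). Intron reads were 45.4%, 28.8% and 27.2% of all Rasgef1b reads in normoxia, 72.7%, 73.8% and 47.8% at day 28 and 58.7%, 57.5% and 52.1% at day 56. The ratio of intron CPM to exon CPM was 4.81, 4.39 and 4.14 in normoxia, 12.8, 15.3 and 6.28 at day 28 and 6.90, 7.78 and 6.94 at day 56. Day 28 replicates 1 and 2 had the highest ratios, and day 28 replicate 3 was below all day 56 libraries. The same 2 replicates had the highest intron share of all reads within genes, 24.9% and 21.4%, against 14.2% in replicate 3, and its part in the ratio was not tested.

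**Figure D2:**
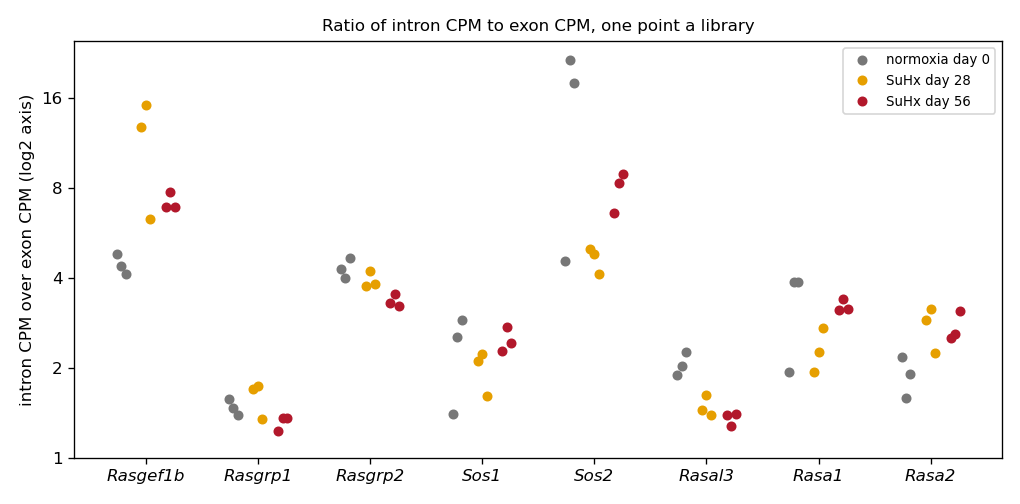
Ratio of intron CPM to exon CPM for each of the 8 genes (vertical axis, log2 scale), 1 point a library, by group. For Rasgef1b the day 28 and day 56 libraries, from 6.28 to 15.3, lie above the normoxia libraries, from 4.14 to 4.81, while Sos2 has its highest ratios in 2 normoxia libraries.

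Per transcript length, Rasgef1b was number 5 of the 8 genes by mean in normoxia and at day 28, and number 3 at day 56. The authors' RPKM (exon reads scaled to exon length and mapped reads) of Rasgef1b were 3.26, 3.48 and 2.53 in normoxia, 7.10, 6.46 and 7.14 at day 28 and 36.4, 31.1 and 29.6 at day 56. In normoxia the mean RPKM ran from Rasgrp2 at 48.2 through Rasal3 at 25.1, Rasgrp1 at 19.6, Rasa1 at 6.25, Rasgef1b at 3.09, Rasa2 at 2.89 and Sos1 at 2.81 to Sos2 at 1.72. The ranges of Rasgef1b and Rasa2, of Rasa2 and Sos1 and of Sos1 and Sos2 overlapped there, as did those of Rasgrp2 and Rasal3 and of Rasal3 and Rasgrp1. Within each normoxia library, however, Rasgrp2 was above Rasal3, Rasal3 above Rasgrp1 and Sos1 above Sos2. Rasgef1b was above Rasa2, and Rasa2 above Sos1, in 2 of the 3. At day 28 the order began with Rasgrp2 at 90.9, Rasal3 at 52.6, Rasgrp1 at 36.7 and Rasa1 at 10.7, without overlap. Rasgef1b followed with a mean of 6.90 RPKM, and its range overlapped that of Sos1, which had a mean of 6.49, ahead of Sos2 at 5.42 and Rasa2 at 3.94. Within each of the 3 day 28 libraries Rasgef1b was above Sos1. At day 56 Rasgef1b had a mean of 32.4 RPKM, and its range overlapped those of Rasal3, at a mean of 35.1, and Rasgrp1, at 27.5. Within libraries, Rasgef1b was above Rasgrp1 in all 3 and below Rasal3 in 2. Rasgrp2 stayed ahead with a mean of 77.9 RPKM at day 56, and Rasa1, Sos1, Rasa2 and Sos2 had means of 6.18, 5.17, 3.13 and 2.87. RPKM are relative to all mapped reads, globin transcripts included, so their ratios between groups are not those of the CPM.

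At day 56 over normoxia the other exchange factors had smaller exon log2 fold changes than Rasgef1b, whereas at day 28 over normoxia those of Sos1 and Sos2 were larger than that of Rasgef1b, an order that turned with the intron share as a covariate (0.09 for Sos1 and 0.66 for Sos2, beside 0.69 for Rasgef1b). Rasgrp1, a diacylglycerol-responsive exchange factor that acts downstream of the T cell receptor, was at 150, 89.6 and 78.6 CPM in normoxia, 130, 102 and 148 at day 28 and 164, 121 and 124 at day 56. Its groups overlapped, with exon log2 fold changes over normoxia of 0.26 ± 0.27 at day 28 and 0.36 ± 0.27 at day 56 (SE, n = 3 each). Without normoxia replicate 1, its highest normoxia library, these were 0.62 and 0.71, and with the intron share of each library as a covariate the day 28 value was -0.08. Within adjacent codes the log2 ratio of Rasgrp1 exon CPM at day 56 over normoxia was 0.13 in replicate 1 and 0.54 in replicates 2 and 3. Rasgrp2, a calcium-responsive exchange factor for Rap1 in platelets and leukocytes, was at 196, 155 and 142 CPM in normoxia, 217, 174 and 179 at day 28 and 224, 227 and 260 at day 56. The day 56 libraries of Rasgrp2 were above all others, and the log2 fold change was 0.53 ± 0.19 over normoxia and 0.32 ± 0.19 over day 28. Within adjacent codes the log2 ratio over normoxia was 0.19 in replicate 1 and 0.72 in replicates 2 and 3. The summed platelet markers given above were also highest in a day 56 library but overlapped between day 56 and normoxia, and their part in Rasgrp2 was not tested.

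Sos1 and Sos2 are exchange factors that the adaptor Grb2 brings to activated receptors. Sos1 was at 42.3, 20.5 and 19.2 exon CPM in normoxia, 40.98, 36.9 and 44.2 at day 28 and 53.5, 42.8 and 43.9 at day 56. Normoxia replicate 1 lay among the day 28 libraries, and the day 56 libraries were above all normoxia libraries. The exon log2 fold change of Sos1 over normoxia was 0.57 ± 0.28 at day 28 and 0.77 ± 0.28 at day 56 (SE, n = 3 each), and without normoxia replicate 1 it came to 1.06 and 1.25. Between libraries with adjacent codes, the log2 ratio of its exon CPM at day 56 over normoxia was 0.34 in replicate 1 and 1.13 in replicates 2 and 3, against 1.04 and 1.06 for intron CPM. Its intron reads were 59.4, 51.8 and 55.4 CPM in normoxia, 86.6, 82.3 and 71.2 at day 28 and 122, 117 and 107 at day 56, with no overlap between any of the groups. The intron log2 fold change of Sos1 was 0.53 ± 0.15 at day 28 and 1.05 ± 0.16 at day 56 over normoxia, and 0.52 ± 0.15 at day 56 over day 28. Sos2 was at 20.1, 10.6 and 12.7 exon CPM in normoxia, 25.8, 29.2 and 31.5 at day 28 and 26.8, 19.8 and 19.2 at day 56. All day 28 libraries of Sos2 were above all normoxia libraries, with a log2 fold change of 0.99 ± 0.25, and the day 56 libraries overlapped both other groups. The intron reads of Sos2, of which 85.1% were counted as uniquely mapped, were at 91.7, 229 and 228 CPM in normoxia, 128, 140 and 130 at day 28 and 177, 164 and 172 at day 56. Normoxia held both the lowest and the highest of these values. Its intron log2 fold change at day 56 over normoxia was -0.09 ± 0.29, but 0.30 with uniquely mapped intron reads and 0.68 with the factors of the exon reads. Those factors shift the median of all genes tested to 0.54 in this comparison. For Sos2, replicate 1 gave a log2 ratio of intron CPM of 0.94, and replicates 2 and 3 gave -0.44.

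Rasal3, a GTPase activating protein found mainly in blood cells, was at 213, 119 and 113 exon CPM in normoxia, 195, 188 and 209 at day 28 and 174, 185 and 213 at day 56. Rasa1, the p120 RasGAP, was at 31.1, 30.5 and 33.7 CPM in normoxia, 34.3, 27.7 and 35.6 at day 28 and 34.7, 23.1 and 23.4 at day 56. Rasa2, a brake on Ras in human T cells, was at 29.6, 27.1 and 20.8 CPM in normoxia, 22.5, 18.9 and 23.7 at day 28 and 31.0, 23.9 and 19.8 at day 56. The groups of all 3 genes overlapped. For Rasal3 the log2 ratio of exon CPM at day 56 over normoxia was -0.29 in replicate 1 and 0.78 in replicates 2 and 3, and for Rasa1 it was 0.16 and -0.46. Without normoxia replicate 1 the exon log2 fold changes of Rasal3 over normoxia were 0.79 at day 28 and 0.73 at day 56. Their exon log2 fold changes over normoxia lay between -0.25 (Rasa2) and 0.41 (Rasal3) at day 28 and between -0.23 (Rasa1) and 0.36 (Rasal3) at day 56, with SE of 0.19 to 0.25. Their intron log2 fold changes over normoxia at day 56 were -0.21 ± 0.21 for Rasal3, -0.24 ± 0.30 for Rasa1 and 0.44 ± 0.21 for Rasa2 (SE, n = 3 each), and with the factors of the exon reads those of Rasal3 and Rasa1 were 0.26 and 0.52. With those factors the median of all genes tested was 0.54, above both.

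**Figure D3:**
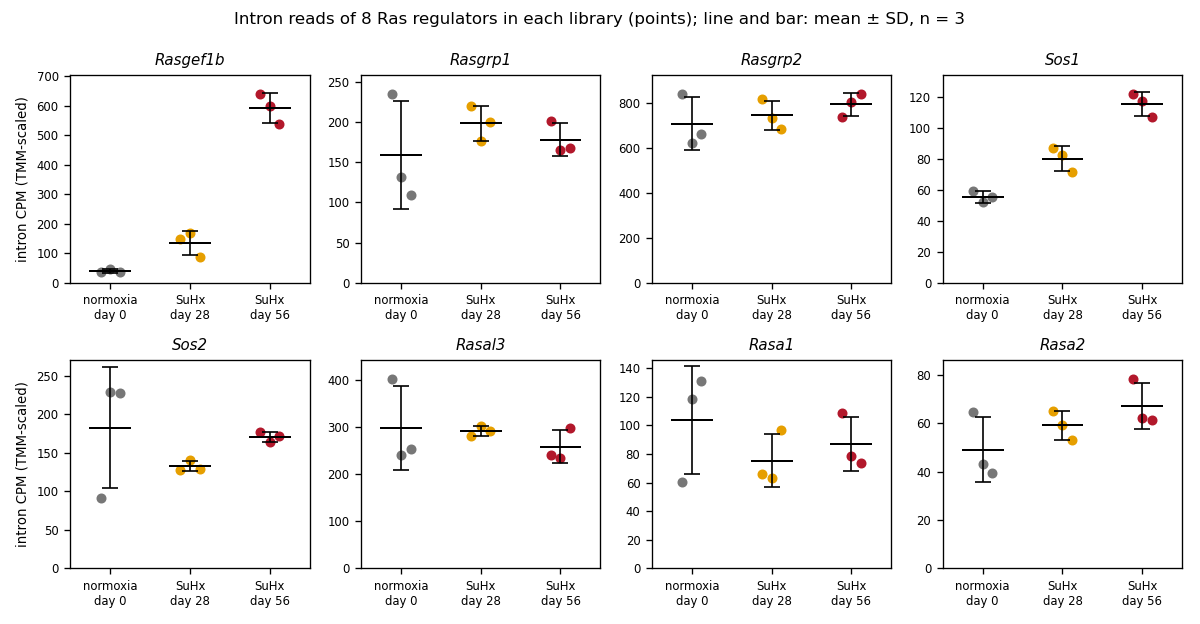
Intron reads of the 8 genes as TMM-scaled CPM (vertical axes, each from 0) by group; points are libraries, and the line and bar are the mean ± SD (n = 3). Rasgef1b runs from 36.7 to 47.8 CPM in normoxia through 88.8 to 167 at day 28 to 538 to 641 at day 56, and Sos1 also has 3 groups that do not overlap.

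As a background, edgeR's quasi-likelihood test with Benjamini-Hochberg adjustment called 0.129% of 12447 genes in exon reads at day 28 over normoxia, 7.12% at day 56 over normoxia and 0.546% at day 56 over day 28, in either direction at an adjusted p of 0.05. In intron reads it called 1.59%, 15.6% and 0.922% of 11713 genes. All 3 exon CPM of the later or treated group were above all 3 of the other for 11.4%, 15.6% and 17.8% of genes in these comparisons, and for 2, 3 and 2 members. In intron CPM this held for 12%, 20% and 16.8% of genes, and for 2, 2 and 3 members. The members' median exon log2 fold change was 0.33, 0.45 and 0.15, beside -0.01, -0.04 and -0.01 over all genes tested, and their median intron log2 fold change was 0.16, 0.16 and 0.20, beside -0.004, -0.04 and -0.005. As the members were chosen from these reads, nothing is read from these counts and medians. The 2 comparisons with normoxia share its libraries.

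**Figure D4:**
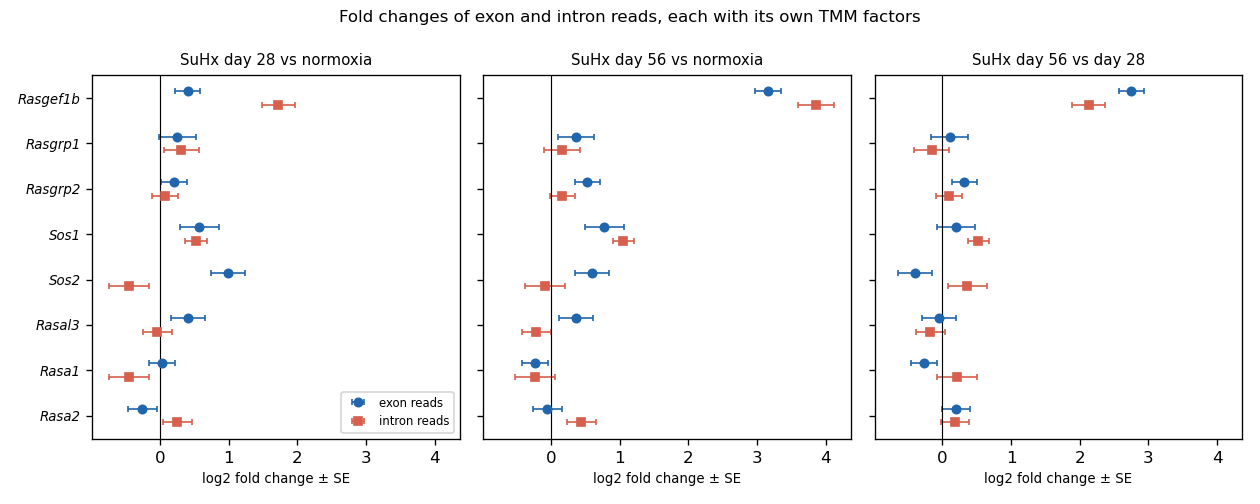
Log2 fold changes (horizontal axis) ± SE of exon reads (circles) and intron reads (squares) of the 8 genes in the 3 comparisons, each kind of read with its own scaling. Rasgef1b stands at 3.16 and 3.86 at day 56 over normoxia. The intron values of Sos2, Rasal3 and Rasa1 over normoxia lie between -0.45 and -0.04 and turn positive with the factors of the exon reads. Those factors also shift the median intron value of all genes tested, to 0.57 at day 28 and 0.54 at day 56 over normoxia.

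The genes whose exon log2 CPM over the 9 libraries were most like those of Rasgef1b were Sh2d2a, an adaptor of activated T cells, with a Pearson r of 0.987, Ephb3, an ephrin receptor, with 0.982, Gpr132, a leukocyte receptor, with 0.978, and the ubiquitin ligase Rnf6 with 0.976. The next were Dusp8, a MAP kinase phosphatase, with 0.974, the autophagy gene Gabarapl1 with 0.972, Errfi1, a feedback inhibitor of the EGF receptor, with 0.971, and the small Maf factor gene Maff with 0.971. These r are descriptions over 9 libraries that share their day 56 step. Sh2d2a was at 26.6 ± 3.75 CPM in normoxia, 32.5 ± 2.73 at day 28 and 118 ± 8.97 at day 56 (SD, n = 3 each), and Gpr132 at 38.7 ± 2.36 in normoxia, 44.6 ± 5.72 at day 28 and 94.6 ± 15.2 at day 56. Ephb3 averaged only 0.54 ± 0.05 CPM at day 56, and Dusp8 averaged 0.04 CPM in normoxia, 0.18 at day 28 and 2.03 at day 56. For the other exchange factors the likest genes were Mybl1, Ankrd28 and Cdk19 for Rasgrp1 (r of 0.968 to 0.977), AABR07006259.1, U2af2 and Phf1 for Rasgrp2 (0.988 to 0.992), Zfp652, Rnf39 and Wipf2 for Sos1 (0.988 to 0.998) and Pptc7, Rab27a and Pdzd8 for Sos2 (0.971 to 0.985). For the GTPase activating proteins they were Men1, Klhl18 and Fam160a2 for Rasal3 (0.984 to 0.987), P2ry10, AABR07001923.1 and AABR07031480.1 for Rasa1 (0.932 to 0.935) and Tmem163, Klhl12 and Asb14 for Rasa2 (0.893 to 0.928). Some of these were low, so their r rest on few reads. By group mean, Rnf39 was at 0.21 to 0.59 CPM, Asb14 at 0.24 to 0.39, AABR07006259.1 at 0.45 to 1.72 and Mybl1 at 0.76 to 0.98.

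Around these 8 genes, 5 lists of Ras pathway genes gave 85 genes tested in exon reads, and edgeR's quasi-likelihood test called 8 that rose and 1 that fell at day 56 over normoxia, 10.6% of the 85 beside 7.12% of all genes. The lists were chosen with earlier results of these data known, so their shares called, here and below, are a description. The paralogs nearest to Rasgef1b were low. Rasgef1a had 38, 59 and 69 exon reads at day 56, against 11, 8 and 8 in normoxia (log2 fold change 2.30 ± 0.69, adjusted p = 0.0667, edgeR), and Rasgef1c had 0 to 2 exon reads in every library. Among 15 other CDC25-family genes tested of 22 listed, 2 rose and 0 fell, beside 4 with an unadjusted p below 0.05 and 4 called by DESeq2. Ralgds, which acts on Ral, had a log2 fold change of 1.42 ± 0.32 (edgeR adjusted p = 0.0356), and Rapgef2, which acts on Rap1, 0.85 ± 0.22 (edgeR adjusted p = 0.04997). Among 19 GTPase activating and inhibitory proteins tested of 20 listed, the 3 Sprouty genes rose and 0 fell. Sprouty proteins are feedback inhibitors of receptor signalling to Ras and ERK. Spry1 had 76, 87 and 93 exon reads at day 56, against 24, 21 and 11 in normoxia (log2 fold change 1.94 ± 0.37). Spry4 had 111, 50 and 86 reads, against 19, 12 and 3 (2.62 ± 0.50). Spry2 had 423, 366 and 479, against 139, 91 and 65 (1.82 ± 0.35), but at most 6 of its reads in a library were counted as uniquely mapped and the gene line of Mycbp2 overlaps it, so its reads are uncertain. The edgeR adjusted p was 0.0209 for each of the 3 Sprouty genes.

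Among 20 Ras family GTPases tested of 25 listed, Rasd1, a Ras-like protein induced by glucocorticoids, rose (log2 fold change 2.75 ± 0.52, edgeR adjusted p = 0.0209), as did Rap2b (0.86 ± 0.22, 0.0468), and Rala fell (-0.74 ± 0.19, 0.0485). Rasd1 had 13, 30 and 21 exon reads in normoxia, 148, 36 and 69 at day 28 and 183, 171 and 179 at day 56. Scaled to library size, this was 0.541, 1.104 and 1.363 CPM in normoxia, 3.936, 0.914 and 2.207 at day 28 and 6.826, 7.186 and 5.999 at day 56, so day 28 overlapped normoxia and lay below day 56. Among 20 adaptors upstream of Ras tested of 22 listed, the inhibitory adaptor Dok2 rose (0.89 ± 0.18, edgeR adjusted p = 0.0249). Among 12 effectors toward ERK tested of 13 listed, edgeR called 0, with 5 at an unadjusted p below 0.05 and 3 called by DESeq2. At day 28 over normoxia edgeR called 0 of the 85 genes, beside 0.129% of all genes, with 27 at an unadjusted p below 0.05 and 14 called by DESeq2, and at day 56 over day 28 it called 0, beside 0.546%, with 21 and 7. The median exon log2 fold changes of the lists at day 56 over normoxia were 0.22 for the CDC25-family genes, 0.40 for the inhibitory proteins, 0.06 for the GTPases, 0.26 for the adaptors and 0.21 for the effectors, beside -0.04 over all genes. When single libraries were left out, 0 of the 9 calls held without normoxia replicate 2 (adjusted p of 0.0812 to 0.187), without normoxia replicate 3 (0.0662 to 0.182), without day 56 replicate 2 (0.0579 to 0.167) or without day 56 replicate 3 (0.0737 to 0.173). Spry1 alone held without day 56 replicate 1 (adjusted p = 0.0494), 4, 6 and 6 held without day 28 replicates 1, 2 and 3, and all 9 held without normoxia replicate 1. With the intron share of each library as a covariate 0 held (edgeR adjusted p of 0.0583 to 0.209).

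**Figure D5:**
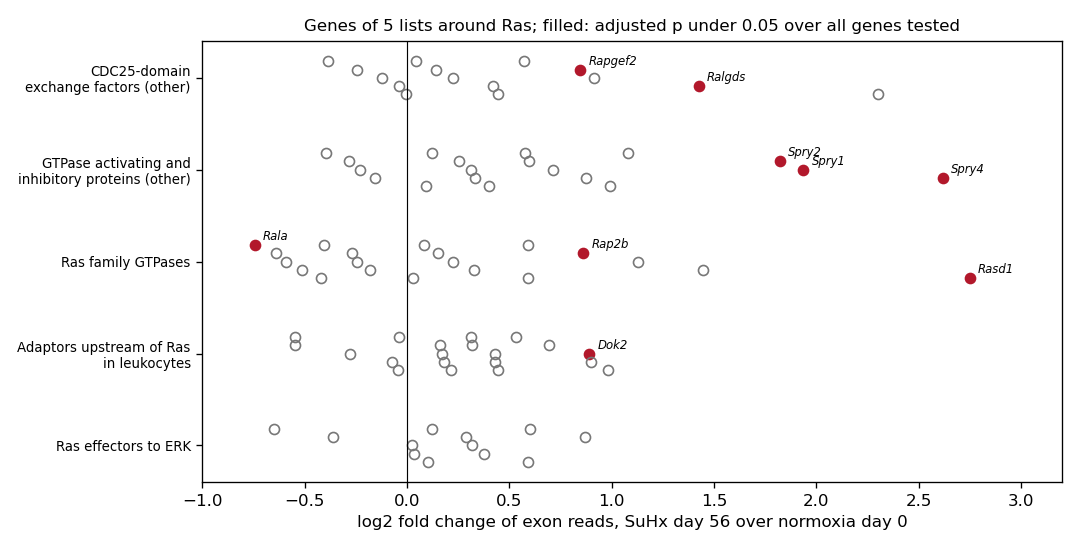
Log2 fold change of exon reads at SuHx day 56 over normoxia day 0 (horizontal axis) for each tested gene of the 5 lists (vertical axis; height within a list only separates the points). Filled points have an adjusted p under 0.05 over all 12447 genes; they are 8 above 0, from 0.85 to 2.75, and Rala at -0.74.

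In intron reads, 83 genes of the 5 lists were tested, and edgeR called 12 that rose and 5 that fell at day 56 over normoxia, 20.5% of the 83 beside 15.6% of all genes. The genes named in this paragraph were chosen after their values were seen. Among the rises were Ralgds, Rapgef1, Rasgef1a, Iqgap1, Rheb, Rras2, Cblb, Lcp2, Shc1, Themis and Map2k2. Rasgef1a, not called in exon reads, was low here too, at 6.74 ± 1.34 intron CPM at day 56, against 1.17 ± 0.90 in normoxia (SD, n = 3 each). Its intron log2 fold change was 2.68 ± 0.57 (edgeR adjusted p = 0.0140), and 8 of 9 fits with 1 library left out kept the call. Cblb, a ubiquitin ligase that restrains T cell activation, was at 336 ± 48.3 intron CPM at day 56, against 119 ± 9.44 in normoxia (SD, n = 3 each; log2 fold change 1.497 ± 0.22, edgeR adjusted p = 0.00428). The falls were in Sh2d3c, Nf1, Rras, Cbl and Dok3, which also lay lower, without a call, when the factors of the exon reads were used. Of the 17 genes called, only Ralgds was also called in exon reads at day 56 over normoxia. Not every fall in intron reads was one in exon reads, where Sh2d3c had 0.44 ± 0.26 and Nf1 0.12 ± 0.27. Nf1, a large GTPase activating protein, was at 92.6 ± 15.1 intron CPM at day 56, against 227 ± 25.1 in normoxia (-1.29 ± 0.24, edgeR adjusted p = 0.00906), and the gene lines of Evi2a, Evi2b and Omg overlap it, so its intron reads are uncertain. At day 28 over normoxia Iqgap1 (1.07 ± 0.21, edgeR adjusted p = 0.0398) and Cblb (1.27 ± 0.22, 0.0279) rose, 2.41% of the 83 genes beside 1.59% of all. Of the 17 day 56 calls, 9 held with the factors of the exon reads, 4, 5 and 6 held without day 56 replicates 1, 2 and 3, 11 and 6 without normoxia replicates 2 and 3, and 15 to 17 without each of the remaining libraries. Of the fits with 1 library left out, the 2 day 28 calls held without day 28 replicate 3 and without normoxia replicate 1, and in the other fits had an adjusted p of 0.0520 to 0.151. Over all genes, intron calls at day 56 over normoxia were 956 higher and 877 lower, against 1194 and 64 with the factors of the exon reads.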

How the data were processed

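RNA sequencing was done on PBMC of rats in 3 groups of 3 libraries. Trizol lysis, column purification with DNase and standard Illumina libraries are stated per the labels' protocols. The build rn6 and FastQC come from the submitters' processing notes; no aligner is given in the sources used here. The authors deposited 1 table with raw exon read counts, whole-gene read counts and RPKM for each library, per the file headers. In 9 deposited columns a fraction on a broken line makes the whole counts formally expected counts; no rounding was needed. Of 22085 lines, 22077 were intact, and 8 broken lines of 4 genes were left out. A further 72 columns of per-library values were not used. Other deposited columns (exon length, number of exons) describe each gene.

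Intron reads are whole-gene minus exon reads. Exon and intron counts were each fitted with edgeR 4.0.16 in R 4.3.3 (TMM, default filterByExpr, robust glmQLFit, glmQLFTest, 1 mean per group over 9 libraries), with Benjamini-Hochberg adjustment at 0.05, and DESeq2 1.42.0 as an alternative. The procedure was tested on simulated data. Apart from the changes put in, all simulated libraries had the same gene proportions and a common spread. That test therefore does not cover the differences in globin share between the libraries. SE were derived from the F statistic. Likeness was Pearson's r of log2(CPM + 0.5). The 9 pairs of libraries within groups each differed by more than sampling noise. A count of 3 reads is 0.0751 to 0.135 CPM of unscaled library size, and such floors cover counting error only. No source used here gives the strandedness. The NF-kB consensus was searched in a 10-letter form open at its 2 central letters. The members and lists were chosen with earlier results of these data known. Named list genes were, per list and comparison, up to 3 called rises and 3 called falls of the exon fit with the largest fold change.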

Additional observations from a re-analysis of the deposited data

Results flagged for a closer look

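In intron reads, 2 genes of the Ras pathway lists differed between the SuHx days and were looked at for that reason; they are 2.41% of the 83 tested, beside 0.922% of all genes. Cbl, a ubiquitin ligase of receptor signalling, had a log2 fold change of -1.21 at day 56 over day 28 (SE 0.18, edgeR adjusted p = 0.0234), with 34.6 ± 1.68 intron CPM at day 56, against 80.1 ± 3.27 at day 28 (SD, n = 3 each). Grb2, the adaptor that binds Sos proteins, had -0.86 (SE 0.16, edgeR adjusted p = 0.0450), with 117 ± 3.93 against 212 ± 35.8. Over 9 fits with 1 library left out, 4 kept the call of Cbl and 3 that of Grb2 (adjusted p of 0.00289 to 0.194), and with the factors of the exon reads neither was called. Neither gene was called in exon reads.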

How the results depend on the processing

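Each gene had 91 alternative log2 fold changes, 14 to 17 for each kind of reads and comparison. Those of Rasgef1b and Sos1 kept their sign, and those of Rasgrp1, Rasgrp2, Sos2, Rasal3, Rasa1 and Rasa2 changed sign in 5, 2, 6, 9, 6 and 3. The fits of uniquely mapped intron reads, of intron reads with the factors of the exon reads and within adjacent column codes, and all alternatives for list genes, were chosen after seeing the data. Genes called over the whole table moved more; the cause was not tested. In exon reads, day 28 over normoxia gave 16 calls, against 8 with RLE factors, 151 without a filter, 72 with uniquely mapped reads, 1 with the intron share as a covariate and 1722 with DESeq2. Day 56 over normoxia gave 886, against 138 with the covariate and 2437 with DESeq2, and day 56 over day 28 gave 68, against 1086 with DESeq2. In intron reads, day 28 over normoxia gave 186 and day 56 over day 28 gave 108, against 343 and 198 without a filter and 495 and 35 with the factors of the exon reads, which shift the median log2 fold change of all genes over normoxia to 0.57 at day 28 and 0.54 at day 56. With those factors Rasgef1b was at 2.39 and 4.49.

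Leaving out each library in turn gave 2 to 5732, 85 to 5453 and 3 to 1002 exon calls in the 3 comparisons, and 0 to 3103, 592 to 3467 and 9 to 776 intron calls. The highest of each came without normoxia replicate 1. The 0 intron calls came without day 28 replicate 1, with 2151 genes at an unadjusted p below 0.05 in edgeR. The labels do not say whether replicate numbers pair the libraries. Same-numbered libraries correlated at -0.146 to 0.167 and other pairs between groups at -0.223 to 0.264. These ranges overlap and cannot decide the question. A replicate block gave 223, 540 and 186 exon calls and 373, 1634 and 73 intron calls, and 6 of the 9 named exon calls of the lists held with it.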
